A study of Caenorhabditis elegans with 8 samples.

Results

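The 10 genes described here encode the proteins of the muscle thick filament in C. elegans. They were taken by name from a list of myosin and thick filament genes, and all 10 were found among the 14541 named genes of the expression table. The list holds the pharyngeal myosin heavy chains myo-1 and myo-2, the body wall heavy chains unc-54 and myo-3, paramyosin (unc-15), the light chains mlc-1, mlc-2 and mlc-3, and the giant proteins of the titin family unc-22 and unc-89. RNA was prepared from whole animals of 2 strains, with 4 experimental replicate libraries each. Wild-type N2 animals were grown for 48 h and pals-17(*) mutants for 72 h, both from synchronized L1 larvae at 20 °C on bacterial food, so that both would be near the L4 stage when harvested. The mutants carry allele syb3980, which places premature stop codons in pals-17, a gene of the PALS family, and as the mutants grow slowly and unevenly their populations were mixed in age. Growth time, developmental stage and genotype cannot be told apart in this design.

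Myosin heavy chains form the motor heads and the rod of the thick filament, light chains bind the neck of each head, and paramyosin forms the core on which myosin assembles. In C. elegans the heavy chains are divided between tissues. The striated body wall muscle that moves the animal uses the products of unc-54 and myo-3, while the pharynx, the muscular pump of feeding, has its own pair from myo-1 and myo-2. Twitchin (unc-22) lies along the thick filament and regulates contraction, and the obscurin relative encoded by unc-89 sits at the M-line, where thick filaments are joined in the middle of the sarcomere.

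The heavy chain genes lie apart in the genome (WBcel235): myo-1 at chrI:7258946-7267057, unc-54 at chrI:14855901-14863482, myo-3 at chrV:12226817-12234343 and myo-2 at chrX:12468061-12475348. Their annotated exons have similar total lengths, between 6104 bases for myo-3 and 6457 bases for myo-1. Paramyosin is encoded at chrI:7376604-7383197 and mlc-3 at chrIII:5565025-5567382. The mlc-1 gene (chrX:17459210-17460778) and the mlc-2 gene (chrX:17455792-17456586) are neighbours, transcribed away from each other across 2623 bases, and encode closely similar regulatory light chains, so the division of reads between them is uncertain. Each of them also overlaps the end of a protein-coding gene on the opposite strand. For mlc-1 it is slc-17.1, which shares only the base at chrX:17460778 with it. For mlc-2 it is C36E6.2, which reaches to chrX:17455868. The strand setting of the read counting is not given in the sources used here. The longest genes are unc-22 (chrIV:11972697-12011007, 23368 bases of exon), which overlaps 22 other annotated genes, most of them small non-coding RNAs, and unc-89 (chrI:4035702-4090885, 25942 bases), which overlaps 5.

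Library depth ranged from 17871320 to 23378799 recovered reads, and the 10 genes together took 0.554% to 0.844% of them. Values are given in CPM, which are reads relative to the library size as scaled by the authors. The pals-17 transcript itself, which checks the strain labels, was at 14.3 to 19.3 CPM in wild-type libraries and at 4.07 to 4.60 CPM in mutant libraries (log2 fold change -1.86, limma adjusted p = 1.72e-07). The scaled library sizes were 0.793 to 0.821 times the recovered totals in wild-type libraries and 1.20 to 1.26 times in mutants. Levels compared between strains depend on this scaling, and ratios between genes within a library do not. Most genes differed between the strains: 42.5% of the 14541 genes were called higher in mutants and 41.2% lower at a limma adjusted p under 0.05. The log2 fold change of the median gene was 0.0041.

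Against this background 2 of the 10 thick filament genes were called higher in the mutants, 3 were called lower and 5 were not called. The higher ones were the pharyngeal heavy chains myo-1 and myo-2. The lower ones were the body wall heavy chains unc-54 and myo-3 and paramyosin. Both shares lay below those of all genes. In none of the 10 did the ranges of the strains separate, while 41.2% of all genes had their 4 mutant libraries above the 4 wild-type libraries and 39% had them below. With 4 libraries against 4 the smallest exact permutation p is 0.0286, reached only when the strains do not overlap. The p-values measure the spread between these libraries, and the labels do not say how far replicates were grown apart.

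**Figure D1:**
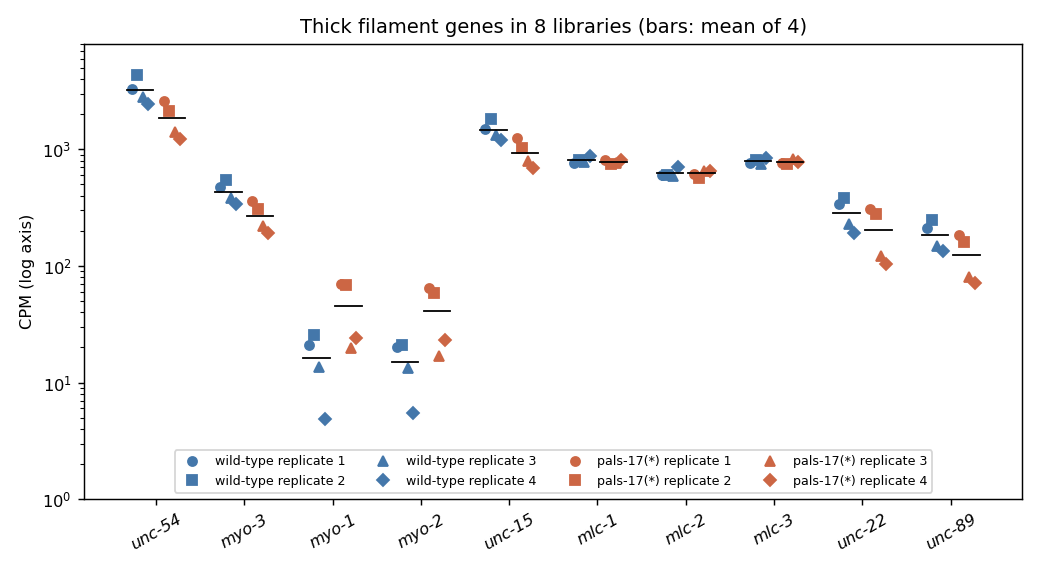
CPM (log axis) of the 10 genes in the 4 wild-type (blue) and 4 pals-17(*) (orange) libraries, with a symbol for each replicate number and bars at the strain means. The pharyngeal genes myo-1 and myo-2 have higher means in mutants with the authors' scaling, the light chains stay between 571 and 883 CPM, and in every gene the strains overlap.

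The pharyngeal heavy chain gene myo-1 was at 21, 25.4, 13.63 and 4.84 CPM in wild-type replicates 1 to 4 and at 70.1, 68.5, 19.7 and 23.9 CPM in mutant replicates 1 to 4. Mutant replicates 1 and 2 lay far above every wild-type library, while mutant replicates 3 and 4 lay within the wild-type range. The log2 fold change was 1.5 (SE 0.574, limma adjusted p = 0.0330, exact permutation p = 0.143), which corresponds to 2.82-fold. In whole animals fewer cells of a type and less RNA per cell cannot be told apart, so these values do not say whether the amount of pharyngeal muscle or its transcript content differed.

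The second pharyngeal gene, myo-2, whose promoter is widely used to mark the pharynx, followed the same course. Wild-type replicates 1 to 4 held 20.1, 20.8, 13.4 and 5.52 CPM, against 65.2, 58.9, 16.9 and 23.1 CPM in mutant replicates 1 to 4. Only mutant replicate 3 lay within the wild-type range. The log2 fold change was 1.40 (SE 0.524, limma adjusted p = 0.0302, exact permutation p = 0.114). The lowest of the 8 libraries was wild-type replicate 4 for both genes. Without that library the log2 fold changes were 1.00 for myo-1 (limma adjusted p = 0.0612) and 0.98 for myo-2 (0.0601), and neither was called.

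Both calls were also lost without wild-type replicate 3 (log2 fold changes of 1.5 and 1.40, limma adjusted p = 0.0634 and 0.0577), without mutant replicate 1 (1.21 and 1.10, 0.0929 and 0.0872) and without mutant replicate 2 (1.22 and 1.14, 0.0914 and 0.0847). The sign was positive for both genes in each of the 8 fits with a library left out. Wild-type replicate 4 also had the lowest summed levels of germline, oocyte and sperm markers among the wild-type libraries, at 212, 16.3 and 13.2 CPM against highest wild-type sums of 559, 116 and 37.7 CPM. The part of these differences in the low myo-1 and myo-2 values was not tested.

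The major body wall heavy chain gene unc-54 was the most abundant of the 10 in reads. Wild-type replicates 1 to 4 held 3315, 4313, 2823 and 2427 CPM of it, against 2611, 2132, 1414 and 1219 CPM in mutant replicates 1 to 4. Only mutant replicate 1 reached into the wild-type range, just above wild-type replicate 4. With the authors' scaling unc-54 was lower in mutants, with a log2 fold change of -0.84 (SE 0.252, limma adjusted p = 0.0105, exact permutation p = 0.0571), but with library totals the value was -0.24 and with quantile normalization it was 0.0079, and neither was called.

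The minor body wall heavy chain gene myo-3, whose product occupies the middle of the filament, was at 474, 547, 380 and 336 CPM in wild-type animals and at 362, 307, 222 and 191 CPM in mutants. The overlap again came from mutant replicate 1 and wild-type replicate 4. With the authors' scaling it was lower in mutants by a log2 fold change of -0.70 (SE 0.213, limma adjusted p = 0.0110, exact permutation p = 0.0571), a value that became -0.11 with library totals and 0.13 with quantile normalization, neither of them called.

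Paramyosin, from unc-15, measured 1479, 1830, 1332 and 1212 CPM in wild-type animals, against 1241, 1022, 800 and 692 CPM in mutants. Its ranges met in the same pair of libraries. With the authors' scaling the log2 fold change was -0.66 (SE 0.186, limma adjusted p = 0.00742, exact permutation p = 0.0571), against -0.06 with library totals and 0.23 with quantile normalization, which were not called. The calls for unc-54, myo-3 and unc-15 held in each of the 8 fits with a library left out, with log2 fold changes of -1.03 to -0.66, -0.86 to -0.55 and -0.81 to -0.53 in that order.

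The 3 light chain genes were the steadiest of the 10. The regulatory light chain gene mlc-1 was at 760, 809, 783 and 883 CPM in wild-type animals and at 804, 748, 769 and 804 CPM in mutants. Its neighbour mlc-2 was at 597, 606, 587 and 705 CPM in wild-type animals and at 611, 571, 657 and 651 CPM in mutants. The essential light chain gene mlc-3 was at 765, 803, 752 and 844 CPM in wild-type animals and at 757, 752, 824 and 777 CPM in mutants. The strains overlapped almost fully in each of these genes, and wild-type replicate 4, the lowest wild-type library for the heavy chains, was the highest library for all 3.

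With the authors' scaling the log2 fold changes of the light chains were -0.05 for mlc-1 (SE 0.0642), -0.0020 for mlc-2 (SE 0.0768) and -0.02 for mlc-3 (SE 0.0614), with limma adjusted p-values of 0.499, 0.982 and 0.716. These values follow the choice of scaling directly. They were 0.55, 0.59 and 0.57 with library totals and 0.84, 0.87 and 0.86 with quantile normalization, all called higher, and -0.33, -0.28 and -0.30 with median centring, all called lower. Library totals moved the median of all genes by 0.60 and median centring by -0.28, so that relative to the median gene the light chains moved little under these scalings, whereas quantile normalization moved the median by only -0.12.

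Twitchin, from unc-22, was at 343, 385, 227 and 193 CPM in wild-type animals and at 306, 280, 121 and 103 CPM in mutants. The obscurin relative unc-89 was at 211, 246, 147 and 134 CPM in wild-type animals and at 185, 162, 80.4 and 72.0 CPM in mutants. In both genes mutant replicates 1 and 2 lay inside the wild-type range and mutant replicates 3 and 4 below it. With the authors' scaling the log2 fold changes were -0.61 for unc-22 (SE 0.374, limma adjusted p = 0.152) and -0.64 for unc-89 (SE 0.322, limma adjusted p = 0.0887), and with quantile normalization they were 0.08 and -0.10. Without wild-type replicate 4 or without mutant replicate 1 unc-89 was called lower, with log2 fold changes of -0.78 (limma adjusted p = 0.0473) and -0.87 (0.0260).

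**Figure D2:**
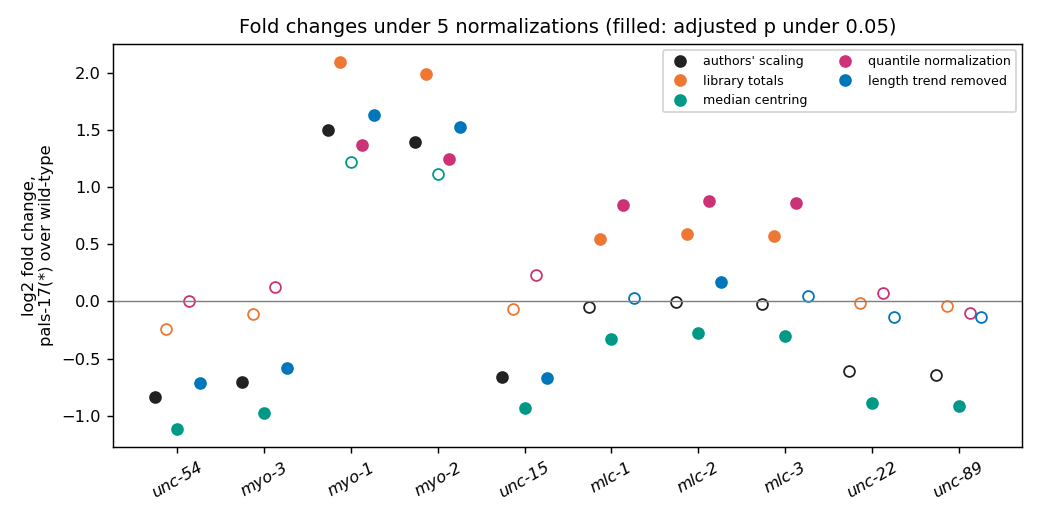
Log2 fold change (pals-17(*) over wild-type) of the 10 genes with the authors' scaling, library totals, median centring, quantile normalization and after removal of a trend with exon length. Filled points have a limma adjusted p under 0.05. The values of myo-1 and myo-2 are above 0 in all 5, while unc-54 runs from -1.12 to 0.0079 and mlc-2 from -0.28 to 0.87.

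The plot of fold changes by scaling shows that the contrast between pharyngeal and body wall genes was present under each normalization, although the sign of the body wall genes was not fixed. The log2 fold changes of myo-1 and myo-2 were 2.09 and 1.99 with library totals, 1.22 and 1.12 with median centring and 1.37 and 1.25 with quantile normalization. They were not called with median centring (limma adjusted p = 0.0708 and 0.0699). Those of unc-54, myo-3 and unc-15 with median centring were -1.12, -0.98 and -0.94, all called lower.

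Read against all genes, library totals called 5 of the 10 higher and 0 lower, where 60.1% of all genes were called higher and 23.3% lower. Median centring called 0 higher and 8 lower, all but the pharyngeal pair, where 36.1% and 50% of all genes were called. Quantile normalization called 5 higher, the pharyngeal pair and the light chains, and 0 lower, where 39.1% and 45.5% of all genes were called.

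Ratios within a library remove the scaling factor of that library. In wild-type replicates 1 to 4 myo-1 was at 0.634%, 0.589%, 0.484% and 0.201% of the unc-54 level, and in mutant replicates 1 to 4 it was at 2.69%, 3.22%, 1.39% and 1.96%. For myo-2 the values were 0.606%, 0.483%, 0.477% and 0.229% of unc-54 in wild-type animals and 2.50%, 2.77%, 1.19% and 1.89% in mutants. Every mutant library lay above every wild-type library for both genes, which was not so for either gene in CPM. The share of all genes separated in this way was not counted. In CPM 41.2% of all genes had their 4 mutant libraries above the 4 wild-type libraries. Calls of a rise relative to unc-54 were also common among all genes, as given below.

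The log2 ratio of myo-1 to unc-54 was -7.84 ± 0.765 (SD, n = 4) in wild-type animals and -5.50 ± 0.531 in mutants, a difference of 2.34 or 5.05-fold (SE 0.466, limma without moderation of the variance, adjusted p = 0.00677, exact permutation p = 0.0286, the smallest the design allows). For myo-2 the log2 ratio was -7.89 ± 0.612 in wild-type animals and -5.65 ± 0.542 in mutants, a difference of 2.23 or 4.70-fold (SE 0.409, limma without moderation, adjusted p = 0.00480, exact permutation p = 0.0286). Relative to unc-54, 47.4% of the other genes were also called higher in this way and 9.06% lower, so a rise over unc-54 was common. With limma's moderated variance these shares were 51.7% and 10.7%, but the noise of unc-54 is then shared by all genes. Moderation lowered the limma adjusted p of myo-1 to 1.5e-10 and that of myo-2 to 1.1e-09. It raised the values of myo-3, unc-15, unc-22 and unc-89, for myo-3 to 0.739 against 0.0915 with its own variance. With moderation the light chains were also called higher over unc-54 (limma adjusted p = 0.0251 for mlc-1, 0.0175 for mlc-2 and 0.0209 for mlc-3). With their own variance they were not called (0.0849, 0.0960 and 0.0816). Against myo-3 in place of unc-54 the differences were 2.2 for myo-1 and 2.10 for myo-2, again without overlap of the strains (exact permutation p = 0.0286 each).

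The other thick filament genes kept closer to unc-54. Within a library the log2 ratio of myo-3 to unc-54 was -2.88 ± 0.0730 in wild-type animals and -2.75 ± 0.0893 in mutants, a difference of 0.13 (exact permutation p = 0.0857). The ratio of unc-15 to unc-54 differed by 0.18 (exact permutation p = 0.114), that of unc-22 by 0.23 (0.229) and that of unc-89 by 0.20 (0.171). The light chains were 0.79 (mlc-1), 0.84 (mlc-2) and 0.81 (mlc-3) higher relative to unc-54 in mutants on the log2 scale, with overlap of the strains (exact permutation p = 0.0857, 0.0857 and 0.0571).

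**Figure D3:**
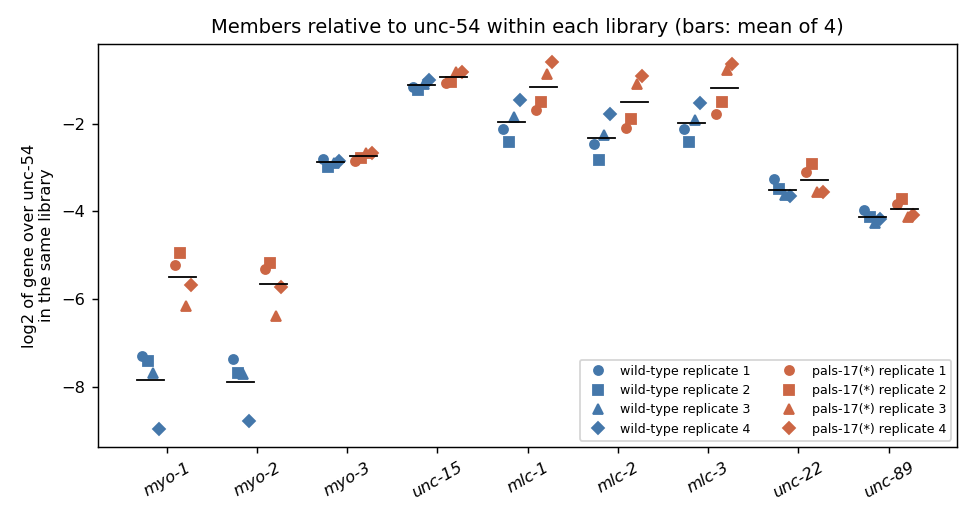
Log2 ratio of each gene to unc-54 in the same library, in wild-type (blue) and pals-17(*) (orange) animals, with bars at the strain means. The strains separate for myo-1 and myo-2, with means of -7.84 and -5.50 and of -7.89 and -5.65, and overlap for the other 7 genes. The share of all genes separated in this way was not counted.

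Expressed per kilobase of exon, the 4 heavy chain transcripts together showed the same shift in composition. The share of unc-54 was 87.2% ± 0.567 (SD, n = 4) in wild-type animals and 83.7% ± 0.598 in mutants, with no overlap between strains. The share of myo-3 was 12% ± 0.534 and 12.7% ± 0.815, with overlap. The pharyngeal pair made up 1.04%, 0.911%, 0.812% and 0.362% in wild-type replicates 1 to 4 and 4.22%, 4.81%, 2.11% and 3.12% in mutant replicates 1 to 4, so that the lowest mutant library was above the highest wild-type library. The main heavy chain transcript was that of unc-54 in each library.

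Levels per kilobase also place the 10 genes in order. In wild-type animals the light chains were highest, with means of 973 (mlc-2), 700 (mlc-1) and 620 (mlc-3) CPM per kilobase, followed by unc-54 at 519 and unc-15 at 427. A wide step led down to myo-3 at 71.1 CPM per kilobase, and the giant genes unc-22 and unc-89 were at 12.3 and 7.11. The pharyngeal heavy chains were lowest, at 2.51 for myo-1 and 2.36 for myo-2. The ranges over the 4 libraries overlapped between the neighbours mlc-1 and mlc-3, mlc-3 and unc-54, unc-54 and unc-15, unc-22 and unc-89, and myo-1 and myo-2, and were apart between the other neighbours.

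In mutants the first 7 places were the same, with 971, 677 and 609 CPM per kilobase for mlc-2, mlc-1 and mlc-3, 297 for unc-54, 274 for unc-15, 44.3 for myo-3 and 8.66 for unc-22. The next places were held by myo-1 at 7.05 and myo-2 at 6.47, with unc-89 last at 4.81, and the ranges of unc-22, myo-1, myo-2 and unc-89 overlapped between neighbours. The paramyosin level per kilobase passed that of unc-54 in 2 of the 4 mutant libraries and in none of the wild-type libraries. These levels divide by all annotated exons, and for genes with many transcripts, such as unc-89 with 16, a shorter expressed form would be understated.

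The spread among replicates differed widely between the genes. The highest library was 5.25 times the lowest in wild-type animals and 3.57 times in mutants for myo-1, and 3.77 and 3.87 times for myo-2. For unc-22 these ratios were 1.99 and 2.98 and for unc-54 they were 1.78 and 2.14. For the light chains they lay between 1.07 and 1.20.

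The replicates also varied together. In 7 of the 10 genes, all but the light chains, replicates 1 and 2 lay above replicates 3 and 4 in both strains, a pattern found in 13.5% of the 8786 annotated genes with a mean of at least 10 CPM. It was present in 2.29% of genes with up to 1.5 kilobases of exon, in 73.4% of the 158 genes with 6 to 10 kilobases and in 87.8% of the 49 genes with more than 10 kilobases. Exon length thus moved with the spread among replicates.

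Deviations from the strain mean set the members beside other long genes. The median gene of 6 to 10 kilobases deviated by 0.28, 0.08, -0.16 and -0.19 on the log2 scale in mutant replicates 1 to 4, while unc-54 deviated by 0.57, 0.28, -0.32 and -0.53. The corresponding deviations of myo-2 were 0.90, 0.75, -1.05 and -0.60. In wild-type replicate 4 the median gene of that length was at -0.18, unc-54 at -0.37, myo-2 at -1.26 and myo-1 at -1.50, so the pharyngeal genes were much lower there than their length class.

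**Figure D4:**
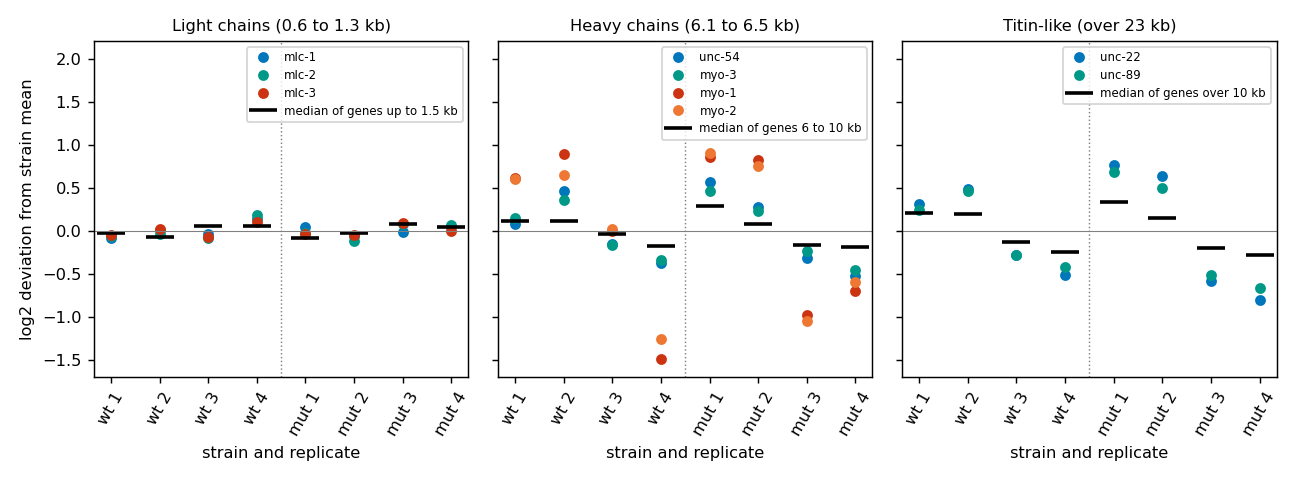
Log2 deviation from the strain mean in each library (wt, wild-type; mut, pals-17(*); numbers are replicates) for light chains, heavy chains and titin-like genes, with black bars at the median of all genes of similar exon length and at least 10 CPM. In mutants the heavy chains and titin-like genes deviate in the same direction as the median long gene and by more, in wild-type replicates 1 and 3 some heavy chains deviate by less (unc-54 by 0.08 in replicate 1) or with the other sign (myo-2 by 0.02 in replicate 3), and the light chains lie between -0.12 and 0.18.

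Among annotated genes with a mean of at least 10 CPM, fold changes were lower only in the classes with the most exon. The median log2 fold change was -0.48 for genes of 6 to 10 kilobases and -0.61 for longer genes. It was -0.27 for genes up to 1.5 kilobases, -0.20 for 1.5 to 3 kilobases, and -0.27 for both 3 to 4 and 4 to 6 kilobases. After a trend with exon length was removed from each library, an alternative chosen after seeing the data, the values for unc-22 and unc-89 moved to -0.14 each. Those of unc-54, myo-3 and unc-15 were -0.71, -0.58 and -0.67 and those of myo-1 and myo-2 were 1.63 and 1.53, all 5 still called, where 45.4% of all genes were called higher and 39.7% lower. The light chain mlc-2 was then called higher, at 0.17 (limma adjusted p = 0.0308).

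The genes whose log2 values ran most like those of a member included other members. Over the 8 libraries the gene most like myo-2 among 5189 named genes of at least 10 CPM was myo-1 (r = 0.995), followed by mpz-1, hoe-1, ints-1 and let-716 (r = 0.975 to 0.978). The genes most like unc-54 were unc-15 and myo-3 (r = 0.998 and 0.997), followed by pro-3, par-1 and ncx-2. These correlations include the difference between strains and, as descriptions over libraries that share depth and length trends, carry no test.

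Taking deviations from the strain means instead left myo-1 nearest to myo-2 (r = 0.992), followed by clik-2, sos-1, znfx-1 and crm-1, and left unc-15, pro-3 and myo-3 nearest to unc-54, followed by let-2 and gfm-1. On that measure the pharyngeal and body wall heavy chains also varied together, with r = 0.887 between myo-2 and unc-54, while over the log2 values themselves r was -0.03. Within strains the heavy chains of both tissues were thus high and low in the same libraries, and between strains their means moved in opposite directions with the authors' scaling, though not with quantile normalization, where unc-54 was at 0.0079.

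Other muscle genes, apart from a pharynx list, were examined as lists, called body wall lists below. The name is a short form, as the genes were not chosen for use in body wall muscle alone. Of 12 other thick filament, M-line and assembly genes 6 were called lower and 1 higher (0 and 6 with library totals), and the median was -0.39 on the log2 scale. The lower ones included dim-1, an immunoglobulin-domain protein that keeps muscle stable (-0.67, from 512 to 322 CPM, but 0.19 with quantile normalization), and unc-45, the chaperone that folds myosin (-0.68, from 73.4 to 45.7 CPM). The phosphatase gene scpl-1, whose product binds UNC-89, was called higher (0.28, but 0.0039 with median centring), and the kettin gene ketn-1, another giant of the titin family, was at -0.83 without a call (limma adjusted p = 0.0626).

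Among the thin filament genes, 10 of which were measured, 7 were called lower and 1 higher (median -0.33; 0 and 6 with library totals), among them tropomyosin, lev-11 (-0.19, but 0.40 with library totals), troponin I, tni-1 (-0.83), and, higher, troponin T, tnt-3 (0.68). The body wall troponin C gene pat-10 was at -0.20 without a call. Of 8 genes of dense bodies and integrin attachment 6 were called lower and 0 higher (median -0.59; 1 and 1 with library totals), with talin, tln-1, at -1.10 and perlecan, unc-52, at -0.17 without a call. Of 8 genes of excitation and calcium handling 6 were called lower and 0 higher (median -0.54; 1 and 1 with library totals), with the calcium pump sca-1 at -1.20 and the ryanodine receptor unc-68 at -0.46 without a call. The muscle transcription factor genes hlh-1 (-0.47), unc-120 (-0.40) and hlh-8 (-0.79) were all 3 called lower, whereas with library totals 0 were called, at 0.12, 0.19 and -0.19.

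Together these lists held 41 genes, of which 28 were called lower and 2 higher with the authors' scaling, while library totals called 2 lower and 14 higher, median centring 37 and 1, and quantile normalization 20 and 12. Of all genes 41.2% were called lower and 42.5% higher with the authors' scaling, and 23.3% and 60.1% with library totals. The shares were 50% and 36.1% with median centring and 45.5% and 39.1% with quantile normalization. The log2 fold change lay above that of unc-54 in 39 of the 41 listed genes, where only 23.9% of all genes lay below unc-54. Neuron markers summed to 702 to 709 CPM in wild-type animals and to 441 to 526 CPM in mutants. Of these 10 genes 7 were called lower and 0 higher, with a median log2 fold change of -0.36 that became 0.24 with library totals. Intestine markers summed to 21726 to 24362 CPM in the wild type against 5170 to 6219 CPM in mutants (9 of 9 called lower, median -2.01, or -1.41 with library totals). Epidermis and molting cuticle markers summed to 6928 to 8523 CPM against 1156 to 1448 CPM (10 of 10 called lower, median -2.56, or -1.97 with library totals). Germline markers summed to 212 to 559 CPM in wild-type animals and to 2605 to 3081 CPM in mutants, and oocyte markers to 16.3 to 116 and 2665 to 3655 CPM, with all 10 genes of each list called higher and no gene of either list at 0 in any library. The part of these tissue differences in the lower values of the body wall lists was not tested.

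The pharynx list gave a separate view of the tissue of myo-1 and myo-2. Among its measured genes, 6 of 10 listed, 4 were called higher and 2 lower (median log2 fold change 1.21). Of all genes 42.5% were called higher and 41.2% lower. The listed genes ceh-22, ceh-34, eat-2 and eat-5 were not measured. With library totals the counts were again 4 and 2 (median 1.81). They were 3 and 2 with median centring (median 0.93) and with quantile normalization (median 0.65). The pharyngeal troponin I gene tni-4 was at 6.96, 6.69, 5.81 and 8.24 CPM in wild-type animals and at 42.3, 45, 37.2 and 37.3 CPM in mutants (log2 fold change 2.55, SE 0.117, limma adjusted p = 2.66e-08). The troponin C gene tnc-2, named after its values were seen, was at 3.32, 3.5, 3.23 and 4.70 CPM in wild-type animals and at 17.6, 21, 19 and 18.9 CPM in mutants (log2 fold change 2.38). Both were well separated between strains and spread little among replicates, unlike myo-1 and myo-2, and wild-type replicate 4 was their highest wild-type library.

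Both troponin genes are short, with 821 bases of exon in tni-4 and 819 in tnc-2. Within libraries the log2 ratio to unc-54 differed between strains by 3.38 for tni-4 and 3.22 for tnc-2 (exact permutation p = 0.0286 each). A rise over unc-54 was called for 47.4% of the other genes with their own variance. The list was not uniform: pha-4, the factor that sets pharyngeal identity and is also active in the intestine, was called lower at -1.04 (from 29.5 to 14.4 CPM), as was the potassium channel gene exp-2 at -0.93. The glutamate-gated chloride channel gene avr-15 and the troponin T gene tnt-4 were called higher, at 1.48 and 0.95. These 3 further genes, exp-2, avr-15 and tnt-4, were also named after their values were seen.

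Myosins outside the thick filament moved in both directions. Of 13 genes for other myosins and light chains 5 were called higher and 5 lower (median log2 fold change 0.36), against 9 and 3 with library totals (median 0.96), while the medians were 0.08 with median centring and 0.04 with quantile normalization. The non-muscle myosins nmy-1, at work in epidermal and gonad contraction, and nmy-2, which drives cell division and germline contractility, rose from 292 ± 42.7 to 812 ± 105 CPM and from 158 ± 22.9 to 373 ± 32.7 CPM (SD, n = 4 each), or by 1.48 and 1.25 on the log2 scale. The light chain gene mlc-7 rose by 3.23, from 5.06 to 46.9 CPM, and the unconventional myosin gene hum-6 fell from 147 to 43.6 CPM (-1.77). Gonad sheath markers, which mark another contractile tissue, summed to 41.5 to 45.2 CPM in wild-type animals and to 112.1 to 122.5 CPM in mutants. Of these 4 markers 3 were called higher and 1 lower, and their part in these rises was not tested.

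**Figure D5:**
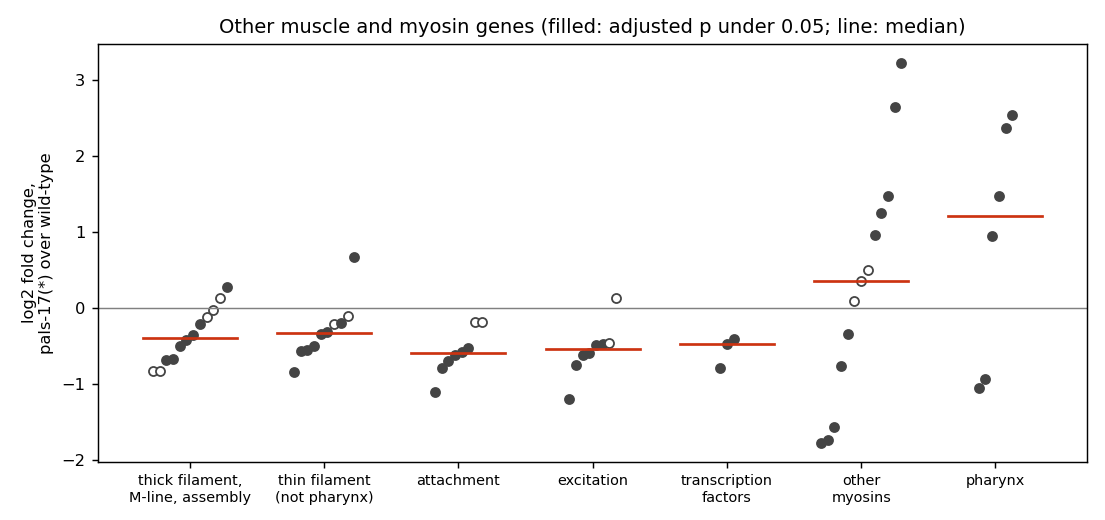
Log2 fold change (pals-17(*) over wild-type, authors' scaling) of each gene in 7 lists of muscle and myosin genes, with filled points at a limma adjusted p under 0.05 and red lines at the list medians. The 5 body wall lists have medians of -0.59 to -0.33, the other myosins 0.36 and the pharynx list 1.21; with library totals the body wall medians are 0.0065 to 0.27 instead.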

How the data were processed

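RNA-seq of whole C. elegans was deposited as 1 table of log2 values per gene and library. Per the labels and the study's methods, the authors sequenced stranded libraries, mapped reads to the WS235 genome with Rsubread, counted with featureCounts and used limma-voom, dropping genes with low counts. The deposited log2 values are log2 CPM, with 0.5 reads added and a scaled library size; the scaling method and annotation are not given in the sources used here. Reads were recovered from the steps of these values (100% within 0.01 of whole reads). An entry naming no gene (0.0042% of reads) was left out. For 14541 genes the strains were compared by limma (version 3.58.1, R 4.3.3), with equal weights, an intensity trend, 2-sided tests and Benjamini-Hochberg adjustment. Single values were compared by exact 2-sided permutation tests (70 relabellings). For ratios to unc-54, each gene's own variance was used, chosen after seeing that subtracting 1 gene gives all genes the same noise. Coordinates and exon lengths came from Ensembl release 115. The fits were tested on simulated data. The members and lists were chosen with earlier results of these data known. Named genes were the 10 members, the 2 most abundant genes and the called genes with the largest rise and fall of each list, and the 5 genes most correlated with myo-2 and unc-54. The alternatives concerned weights, prior variance, a replicate block, the offset, filters, scaling, thresholds, the reference gene, an exon length trend and each library left out.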

Additional observations from a re-analysis of the deposited data

Results flagged for a closer look

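Among the levels and within-library ratios of the named genes 102 groups of 4 libraries were checked for a library far from the other 3, and 2 were found, where about 1 in 20 (5.1) would be by chance. In the mutants dim-1 was at a log2 value of 8.49 in replicate 1 against 8.27 to 8.28 in the others. In wild-type animals unc-120, a muscle transcription factor gene, was at 4.07 in replicate 4 against 3.71 to 3.72 in the others. None of the 10 thick filament genes had such a library in either strain.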

How the results depend on the processing

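The rise of myo-1 and myo-2 over unc-54 kept its direction under the alternatives tried, with log2 differences of at least 1.36 and 1.24 (quantile normalization) and of 1.96 to 2.56 and 1.94 to 2.48 with each library left out. Its call with each gene's own variance was tested only with the authors' scaling and all 8 libraries. The number of members called higher was 2, and became 1 without an intensity trend, 0 with robust empirical Bayes, median centring or an adjusted p under 0.01, 5 with library totals or quantile normalization, and 0 to 2 with each library left out. The number called lower was 3, and became 0 with library totals, quantile normalization or a log2 fold change beyond 1, 8 with median centring, 1 at an adjusted p under 0.01, and 3 to 4 with each library left out. With the replicate number as a block it became 5, adding unc-22 and unc-89. Same-numbered libraries deviated together with r of -0.03 to 0.10 over 8789 genes, mutant replicate 1 correlated best with wild-type replicate 2 (0.362), and the numbers were not taken to pair the samples. With quantile normalization the log2 fold changes changed sign for myo-3 (0.13), unc-54 (0.0079), unc-15 (0.23), unc-22 (0.078), mlc-1 (0.84), mlc-2 (0.87), mlc-3 (0.86), dim-1 (0.19), lev-11 (0.71), pat-10 (0.66) and unc-52 (0.69). With library totals they did so for mlc-1 (0.55), mlc-2 (0.59), mlc-3 (0.57), lev-11 (0.40), pat-10 (0.39), unc-52 (0.42), unc-68 (0.14), unc-120 (0.19) and hlh-1 (0.12). With the length trend removed, chosen after seeing the data, they did so for mlc-1 (0.032), mlc-2 (0.17), mlc-3 (0.047) and unc-52 (0.17). Leaving out wild-type replicate 4 gave mlc-2 0.058 and mlc-3 0.0070, and leaving out mutant replicate 1 or 2 gave mlc-2 0.0063 or 0.04; over all libraries left out in turn mlc-2 ran from -0.030 to 0.058 and mlc-3 from -0.053 to 0.0070. The cause of these changes was not tested. Of 190 single member values under alternatives 148 kept direction and call, 17 reversed, 16 lost a call and 9 gained one. Depth limits myo-1 and myo-2 most, with 71 and 81 reads in wild-type replicate 4.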

Other observations

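The myosin gene myo-5, named after its values were seen, was at 3.7, 3.55, 3.23 and 2.52 CPM in wild-type animals and at 26.5, 25.4, 15.6 and 16.3 CPM in mutants (log2 fold change 2.65, limma adjusted p = 8.93e-07). It has 6296 bases of exon, close to the other heavy chain genes, and the strains were apart. The non-muscle regulatory light chain gene mlc-4 measured 103.6 ± 8.16 CPM in the wild type against 201 ± 6.63 CPM in mutants (SD, n = 4 each), while the light chain gene mlc-5 was at 135 ± 11 and 80.3 ± 10.6 CPM. The ratio of mlc-1 to mlc-2 in a library was 0.38 ± 0.0472 on the log2 scale in wild-type animals and 0.33 ± 0.0793 in mutants (exact permutation p = 0.400).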
